A study of Homo sapiens with 30 samples.

Results

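The transcriptional response of H1299 cells to p53 made under transcriptional mutagenesis (p53 TM) was compared with that of cells given green fluorescent protein (GFP) alone, 24 h after transfection. The comparison was defined by vector and treatment, as the count columns name them, and took 6 of the 30 libraries of the series, 3 of p53 TM and 3 of pGFP, which share replicate numbers 1 to 3. H1299 is an established human lung carcinoma line that lacks a functional p53 gene, used at passages 7 to 12. Every group was transfected transiently with a vector that carries GFP, and cells were sorted on GFP before total RNA was sequenced after depletion of ribosomal RNA. The p53 TM group received the vector pP53 O6-meG, which holds a single O6-methylguanine (O6-meG) in the template strand of the p53 coding sequence, together with 10 µM O6-benzylguanine (O6-bzG), an inactivator of the repair protein that removes the lesion. RNA polymerase can read the lesion wrongly, so that the p53 transcripts of these cells are a mixture of normal ones and of ones with the change that the RW mutant vector encodes. The pGFP group received GFP with no p53 and no O6-bzG. Hence p53 expression and O6-bzG cannot be told apart between the 2 groups, and all results hold for 1 cell line under transient expression. Wild type p53 (pP53 WT) and RW mutant p53 (pP53 RW), 3 libraries each at 24 h and without O6-bzG, were compared to place the p53 TM group between them. A further group at 24 h, also of 3 libraries, received pP53 O6-meG without O6-bzG and was not compared here. All 15 libraries at 24 h entered the fit behind every call, through the filter, the normalization and the estimate of the spread.

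p53 is a transcription factor that binds DNA as a tetramer and activates genes of cell cycle arrest, apoptosis, DNA repair and metabolism, along with genes such as MDM2 that limit p53 itself. Most repression after p53 activation is indirect: p21, the product of CDKN1A, keeps the DREAM complex on the promoters of cell cycle genes. The RW mutant changes a residue that contacts DNA, and mutant and normal subunits can enter the same tetramer.

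Total counts ran from 32302699 to 51604990 reads per library at 24 h, and levels are given as CPM, that is, reads scaled to a common library total after TMM normalization. Of the markers of a carcinoma line, VIM stood at 2431, 2973 and 3127 CPM in p53 TM and 2097, 2850 and 2924 CPM in pGFP, KRT18 and KRT8 were also expressed, and the epithelial marker CDH1 had at most 3 reads in any of the 6 libraries. Among 11 markers of other cell types, 5 were not tested: PTPRC, CD68, HBA1 and SFTPC had at most 8 reads in a library, and CD3E has no row in the table. The 6 that were tested summed to 305.6 to 747.7 CPM in p53 TM and to 759.1 to 1301 CPM in pGFP. Nearly all of this was HBB, a globin gene, at 744, 304 and 618 CPM in p53 TM and 1296, 756 and 988 CPM in pGFP (log2 fold change -0.87 ± 0.43, adjusted P = 0.31; 2.5e-06 with the replicate block described below), and its source was not tested. HBD, another globin gene, which was on no list and is named after its values were seen, was at 495, 228 and 339 CPM in p53 TM and 869.6, 544 and 743 CPM in pGFP (log2 fold change -1.02, adjusted P = 0.15; 1.3e-07 with the block).

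MGMT, which encodes the repair protein that O6-bzG inactivates, was at 15.4, 16.2 and 15.3 CPM in p53 TM and 13.9, 14.7 and 15 CPM in pGFP (adjusted P = 0.75, by the quasi-likelihood test of edgeR, Benjamini-Hochberg adjusted over all genes tested, as throughout, with ± giving the SE). The reference transcript RPLP0 was at 1413, 1611 and 1558 and 1397, 1459 and 1498 CPM (adjusted P = 0.7).

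p53 TM raised 501 of 20124 genes tested, 2.49%, and lowered 14, 0.0696%, at an adjusted P under 0.05 and at least 2-fold. Without the limit on fold, 1138 genes (5.65%) were higher and 211 (1.05%) lower. Of the 501 genes, 271 rose by less than 4-fold, 108 by 4-fold to less than 8-fold and 122 by 8-fold or more. Protein-coding genes made up 78.0% of them, against 70.6% of all genes tested, and long non-coding RNAs 16%, against 15.9%. At most 3 reads in every pGFP library were found for 88 of the 501, so their folds are only bounds. Over all genes tested this held for 182, which passed the filter on low counts through other libraries and left little room for a fall. Leaving out p53 TM replicate 1 took the rises to 317, and leaving out any other of the 6 libraries gave 393 to 587. The falls numbered 9 without p53 TM replicate 1, 6 without pGFP replicate 2, 3 without pGFP replicate 1 and 10 to 13 in the other cases.

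Libraries with the same replicate number deviated together, so the numbers were also fitted as a block. With the replicate block 674 genes (3.35%) rose and 87 (0.432%) fell at least 2-fold, and without the fold limit 2631 (13.1%) were higher and 1993 (9.9%) lower. Of the 501 rises, 495 were called in the paired fit too, and all 14 falls were. The lower genes without a fold limit numbered 211 in the unpaired fit, so the paired fit changed the count of decreases the most.

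The largest rises, among genes with a mean of at least 1 CPM, were those of genes that were almost silent without p53. SULF2, which encodes a sulfatase acting on heparan sulfate, stood at 3.68, 2.68 and 1.75 CPM in p53 TM and at 0.0288, 0 and 0 CPM in pGFP. Counted against a floor of 3 reads per pGFP library it was at least 34.7-fold higher (adjusted P = 6.3e-06). On the same floor GRHL3, a transcription factor of epithelia, was at least 31.6-fold higher, RGMA, an axon guidance molecule, at least 30.6-fold, and INPP5D, which encodes an inositol phosphatase, at least 40.1-fold. In each of these 4 genes all 3 p53 TM libraries lay above all 3 pGFP libraries, as they did in all 501 genes. The 501 were chosen by a test on these same libraries, so this adds no separate evidence. Over all 20124 genes tested it held for 2913.

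Other genes among the largest rises had more reads in pGFP. NSG1, a protein of neuronal endosomes, was at 43.7, 29.5 and 17.9 CPM in p53 TM against 0.288, 0.0243 and 0.124 CPM in pGFP (log2 fold change 7.74 ± 0.54, adjusted P = 6.3e-07). DRAXIN, a secreted axon guidance protein, was at 50.4, 26.7 and 18.5 against 0.403, 0.389 and 0.248 CPM (6.51 ± 0.47, adjusted P = 7.8e-07). In both, replicate 1 of p53 TM held more than any other library of the 2 groups and replicate 3 the least of the p53 TM group. GRIP2 (6.03 ± 0.64) and KLHL30 (5.85 ± 0.56) were also among the largest rises, with 3 genes described further on, PHLDA3, MIR34AHG and LNCTAM34A. Exons of other genes lie on the opposite strand at SULF2, NSG1, DRAXIN, GRIP2 and KLHL30, and whether counting used the strand is not given in the sources used here, so the reads of both strands cannot be told apart there.

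The promoters of the rises were searched for the p53 response element, which consists of 2 copies of a palindromic half-site of 10 bases, separated here by at most 13 bases. RefSeq promoters of GRCh38.p14, from 250 bases before to 50 bases after the start, were on hand for 319 of the 501 genes by symbol. A full element was present in the promoters of 2 of these 319 genes (0.627%), against 10 of all 27305 genes with a promoter (0.0366%). A single half-site was present in 52 of the 319 (16.3%) and in 2202 of all (8.06%). The 2 genes with a full element, LNCTAM34A and DDB2, are shown with 40 bases on either side, cut at 30 transcribed bases, with the half-sites in capitals, because both rose with p53 TM and neither differed detectably from wild type p53.
LNCTAM34A, chr1:9182104-9182203, plus strand: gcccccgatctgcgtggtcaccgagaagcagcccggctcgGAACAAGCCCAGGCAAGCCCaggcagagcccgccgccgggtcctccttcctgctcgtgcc
DDB2, chr11:47214939-47215003, plus strand: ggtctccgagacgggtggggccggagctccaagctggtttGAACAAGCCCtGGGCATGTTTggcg
The half-sites adjoin in LNCTAM34A, where the element lies 60 to 41 bases before the start, and are 1 base apart in DDB2, where it lies 5 to 25 bases past the first transcribed base. The first half-site has the same 10 bases in both. A match is a sequence only, with no binding measured here, and elements outside the window, where many p53 sites are known, were not searched.

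LNCTAM34A, which is transcribed from the miR-34a locus on the strand opposite to the miRNA host gene MIR34AHG, was at 4.2, 2.7 and 2.88 CPM in p53 TM and 0.0576, 0 and 0.0496 CPM in pGFP, at least 41.9-fold higher at the floor of 3 reads (adjusted P = 9.8e-07). MIR34AHG, the precursor of a miRNA that is a known p53 target, was at 38.7, 24 and 22 against 0.489, 0.219 and 0.173 CPM (log2 fold change 6.61 ± 0.49, adjusted P = 1.1e-06). All p53 TM libraries were far above all pGFP libraries in both genes, but their exons overlap on opposite strands and the 2 cannot be taken as independent. Of 10 long non-coding RNAs tested, out of 12 listed, 3 rose at least 2-fold and 5 without the fold limit, with a median log2 fold change of 0.66. TP53TG1 was the other one, at 23.4, 21.3 and 18.1 against 10.1, 9.19 and 8.6 CPM (1.17 ± 0.14, adjusted P = 1.2e-04). MALAT1, the most abundant member, was not called, at 3387, 3012 and 2780 against 2623, 3432 and 2820 CPM (adjusted P = 0.91).

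Of 8 genes of the p53 feedback loop, 2 rose at least 2-fold and 5 without the fold limit. MDM2, the ubiquitin ligase that degrades p53, was at 1829, 1588 and 1115 CPM in p53 TM and 192, 199 and 184 CPM in pGFP, 7.88-fold higher (log2 fold change 2.98 ± 0.19, adjusted P = 3.1e-07). The pGFP libraries lay within a narrow band, and the lowest p53 TM library, replicate 3, was still far above it. ZNF385A, a zinc finger protein that binds p53, was at 23.2, 12.9 and 11.9 against 3.86, 2.92 and 3.4 CPM (2.24 ± 0.30, adjusted P = 2.6e-04). PPM1D, CCNG1 and TNFAIP8 were higher by less than 2-fold. TNFAIP8 lost its call without p53 TM replicate 1 (0.085) or replicate 2 (0.069) or pGFP replicate 1 (0.054). CCNG1, the most abundant of those not called at 2-fold, stood at 581, 613 and 489 against 304, 358 and 338 CPM (0.75 ± 0.12, adjusted P = 9.5e-04). MDM4, COP1 and RCHY1 did not pass (log2 fold changes 0.20, 0.23 and 0.13), and the median of the 8 was 0.77, against -0.02 over all genes tested.

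Of 14 genes of cell cycle arrest, 6 rose at least 2-fold and 8 without the fold limit, with a median of 1.02. CDKN1A, which encodes the cyclin-dependent kinase inhibitor p21, was at 386, 444 and 306 CPM in p53 TM and 48.4, 53.9 and 53.2 CPM in pGFP, 7.31-fold higher (log2 fold change 2.87 ± 0.20, adjusted P = 4.7e-07). PHLDA3, an inhibitor of Akt signalling, was at 12.4, 9.03 and 6.38 against 0.0288, 0.0973 and 0.0496 CPM (7.19 ± 0.55, adjusted P = 1.6e-06). BTG2, an antiproliferative regulator of mRNA decay, was at 73.7, 61.8 and 45.6 against 2.56, 2.46 and 2.97 CPM (4.50 ± 0.18, adjusted P = 3.2e-09). The groups were wide apart in all 3 genes, and the spread within p53 TM was larger than within pGFP. GADD45A (1.97 ± 0.22), the kinase genes PLK2 (1.33 ± 0.15) and PLK3 (1.08 ± 0.10) were the other rises, while RBM38 fell just short of 2-fold (0.98 ± 0.12, adjusted P = 9.9e-05) and passed it in several of the alternative fits. RPRM, which encodes a G2 arrest protein, was at 5.07, 3.68 and 3.46 against 3.54, 2.38 and 2.38 CPM and did not pass (0.56 ± 0.20, adjusted P = 0.12; 0.0033 with the block). SFN, the 14-3-3 sigma gene, did not pass either, at 0.578, 0.73 and 0.5 against 0.345, 0.268 and 0.248 CPM (adjusted P = 0.12; 0.012 with the block).

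**Figure D1:**
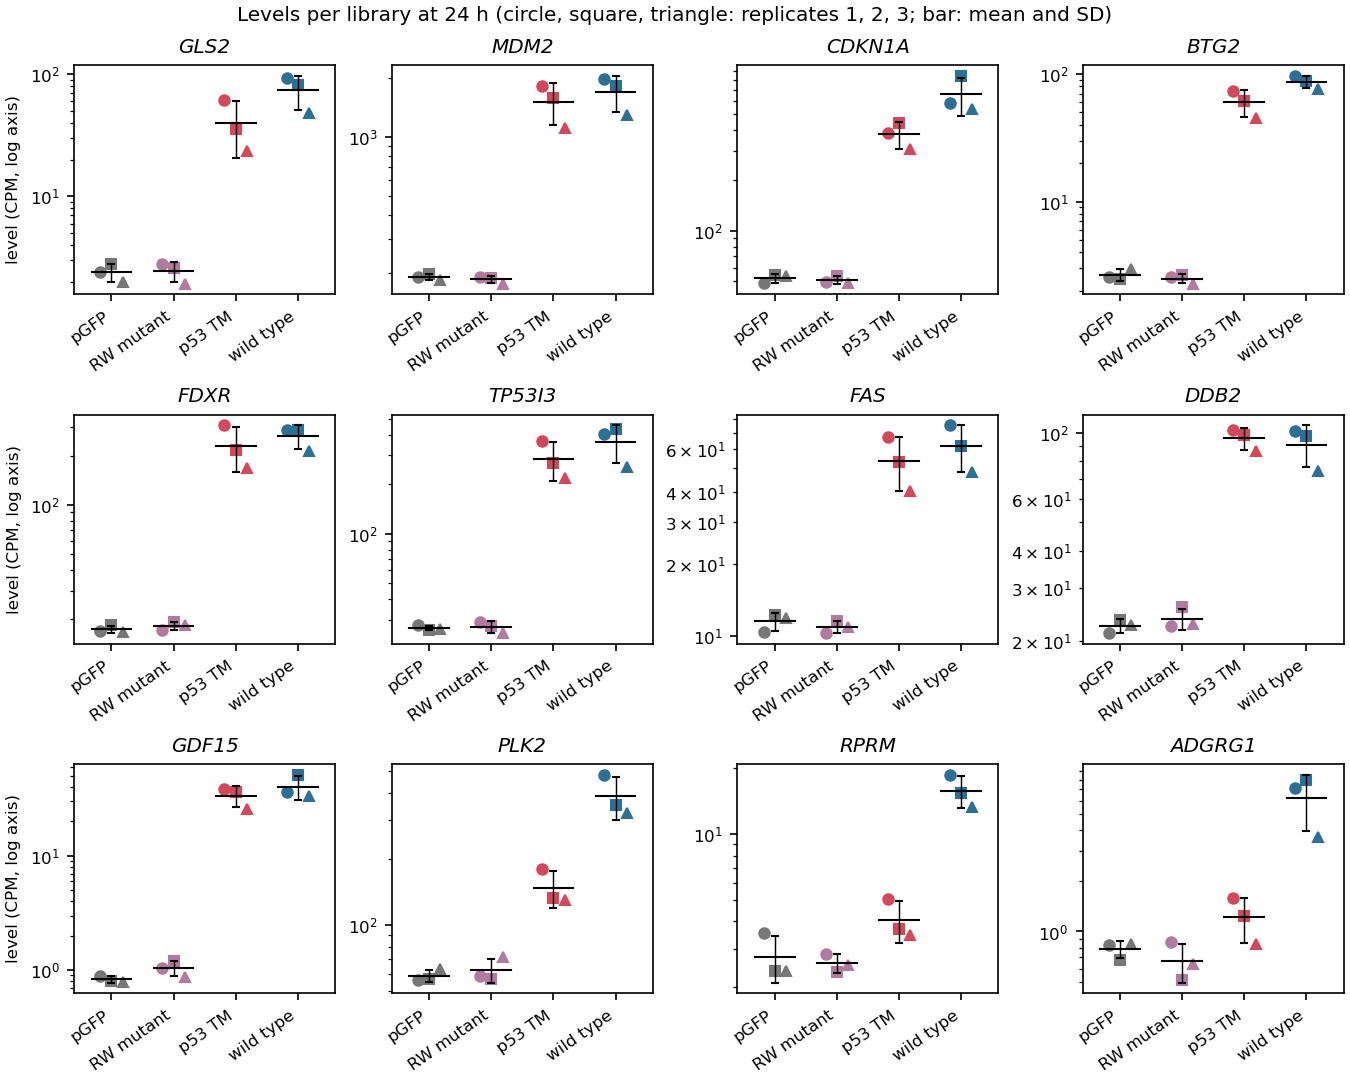
Levels in CPM on a log axis in each library at 24 h for 12 genes, by group, with the mean and SD over 3 libraries as bars and the replicate number as the marker. GLS2, MDM2, CDKN1A and the other strongly induced genes are high in p53 TM and wild type p53 only, and in RPRM and ADGRG1 the p53 TM means are nearest to those of pGFP.

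Among 16 genes of intrinsic apoptosis, 8 rose at least 2-fold and 10 without the fold limit, with a median of 0.94. BBC3, which encodes the BH3-only protein PUMA, was at 11.8, 11.4 and 8.67 CPM against 1.78, 2.02 and 2.6 CPM (log2 fold change 2.31 ± 0.21, adjusted P = 8.3e-06). AEN, an exonuclease gene of apoptotic DNA digestion, was at 165, 153 and 148 against 27.8, 34 and 39 CPM (2.21 ± 0.13, adjusted P = 2.1e-07). TP53INP1, a stress protein that promotes p53 phosphorylation, was at 173, 129 and 101.1 against 45, 39 and 34.4 CPM (1.77 ± 0.21, adjusted P = 1.2e-04). None of these overlapped between the groups. The apoptosome gene APAF1 (1.54 ± 0.24), TRIAP1 (1.42 ± 0.13), the pore-forming BAX (1.38 ± 0.12) and BAK1 (1.16 ± 0.16) and the caspase CASP6 (1.17 ± 0.19) also rose. PMAIP1, the gene of NOXA, was higher by less than 2-fold (0.63 ± 0.15, adjusted P = 0.02), a call that was lost on leaving out p53 TM replicate 1 (0.099) or replicate 3 (0.058), pGFP replicate 1 (0.053) or replicate 2 (0.062). The antiapoptotic MCL1 was at 331, 374 and 326 against 285, 318 and 296 CPM and did not pass (0.20 ± 0.08, adjusted P = 0.15; 0.0016 with the block).

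Death receptor genes had the highest median of all lists examined, 1.60, and 6 of 10 rose at least 2-fold. FAS, the receptor of the Fas ligand, was at 67.7, 53.4 and 40.4 CPM in p53 TM and 10.4, 12.3 and 11.9 CPM in pGFP (log2 fold change 2.22 ± 0.19, adjusted P = 5.3e-06). EDA2R, a receptor of ectodysplasin, was at 2.36, 2.00 and 1.71 against 0.115, 0.17 and 0.0991 CPM (3.94 ± 0.38, adjusted P = 1.2e-05). PIDD1, an adaptor with a death domain, was at 137, 77.1 and 59 against 14, 15.8 and 14.8 CPM (2.61 ± 0.28, adjusted P = 3.5e-05). For all 3 the lowest p53 TM library was replicate 3 and the highest replicate 1, with no overlap with pGFP. Of the TRAIL receptors TNFRSF10B (2.00 ± 0.12), TNFRSF10A (1.52 ± 0.15) and the decoy TNFRSF10D (1.69 ± 0.14) rose, while the decoy TNFRSF10C did not pass and stood at 2.15, 2.92 and 2.5 against 4.23, 3.89 and 4.21 CPM (-0.70 ± 0.20, adjusted P = 0.054; 0.0025 with the block). TNFRSF1A, a receptor of tumour necrosis factor, was not called (0.07 ± 0.27, adjusted P = 0.94).

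Of 12 DNA repair genes, 4 rose at least 2-fold and 6 without the fold limit, with a median of 0.28. DDB2, a damage recognition factor of nucleotide excision repair whose promoter is shown above, was at 102, 98.4 and 86.7 CPM against 21.2, 23.5 and 22.5 CPM (log2 fold change 2.09 ± 0.12, adjusted P = 2.1e-07). XPC, which recognizes damage in the same pathway, was at 103, 90.3 and 85.5 against 43, 41.9 and 37.9 CPM (1.18 ± 0.11, adjusted P = 8.3e-06). POLH, a translesion polymerase, was at 242, 160.4 and 144 against 66.3, 50.4 and 52.3 CPM (1.69 ± 0.24, adjusted P = 3.9e-04). These groups did not overlap, and in DDB2 and XPC the spread within each group was small. RRM2B, a subunit of ribonucleotide reductase, was the fourth (1.5 ± 0.16). PCNA (0.54 ± 0.10) and RAD51C (0.46 ± 0.08) were higher by less than 2-fold, and XRCC5, the most abundant member, was not called (adjusted P = 0.76).

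In the list of metabolism and redox, 9 of 16 genes tested rose at least 2-fold and 11 without the fold limit, with a median of 1.28. SOD2 and SCO2 have no row in the table. FDXR, the mitochondrial ferredoxin reductase, was at 307, 216 and 168 CPM in p53 TM and 17, 18.4 and 16.7 CPM in pGFP, 13.2-fold higher (log2 fold change 3.73 ± 0.23, adjusted P = 2.2e-07). TP53I3, an oxidoreductase gene, was at 365, 270.1 and 218 against 27.8, 26.1 and 26.5 CPM (3.41 ± 0.22, adjusted P = 3.2e-07). GLS2, a glutaminase, was at 61.8, 35.3 and 23.4 against 2.42, 2.82 and 2.01 CPM (4.05 ± 0.38, adjusted P = 1.0e-05). The p53 TM libraries of FDXR and GLS2 spread more widely than the pGFP libraries, again with replicate 1 the highest and replicate 3 the lowest. SESN1, a sestrin that restrains mTORC1, was at 193, 157 and 133 against 33.9, 29.2 and 29.9 CPM (2.37 ± 0.16, adjusted P = 3.2e-07). PANK1 (2.31 ± 0.16), TIGAR (1.90 ± 0.15), PRKAB1 (1.59 ± 0.13), SESN2 (1.46 ± 0.12) and DDIT4 (1.10 ± 0.21) were the other rises, and LPIN1 was not called (0.03 ± 0.06, adjusted P = 0.89).

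Of 13 secreted factors and their regulators listed, 10 were tested, 2 rose at least 2-fold and 3 without the fold limit, and the median was 0.44. GDF15, a stress cytokine, was at 38.7, 36.3 and 25.6 CPM against 0.892, 0.802 and 0.793 CPM, 40.4-fold higher (log2 fold change 5.34 ± 0.24, adjusted P = 7.9e-09). CSF1, the growth factor of macrophages, was at 11.3, 7.69 and 7.17 against 2.19, 3.28 and 2.83 CPM (1.65 ± 0.22, adjusted P = 2.6e-04). Both were clear of pGFP in all 3 libraries. BMP7, a bone morphogenetic protein, was at 0.84, 0.755 and 0.5 against 0.202, 0.389 and 0.273 CPM and did not pass (1.24 ± 0.37, adjusted P = 0.06; 0.0024 with the block).

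Of 13 genes of adhesion, cytoskeleton and receptors, 5 rose at least 2-fold and 7 without the fold limit, with a median of 0.62. ACTA2, the smooth muscle actin gene, was at 112, 88 and 73.3 CPM against 3.14, 3.89 and 3.92 CPM (log2 fold change 4.64 ± 0.22, adjusted P = 1.2e-08). Its exons overlap those of FAS on the opposite strand, so the 2 rises may share reads. EPS8L2, which links growth factor receptors to actin, was at 138, 75.8 and 60.3 against 15.1, 15.8 and 14.2 CPM (2.60 ± 0.31, adjusted P = 8.8e-05). NOTCH3, a receptor gene, was at 72.2, 29.3 and 22.3 against 15.6, 9.27 and 10.8 CPM (1.80 ± 0.42, adjusted P = 0.016), where replicate 1 of p53 TM was more than any other. Without that library its adjusted P was 0.1, without pGFP replicate 2 it was 0.081 and without pGFP replicate 3 it was 0.057. KITLG (1.53 ± 0.24) and EPHA2 (1.02 ± 0.14) also rose. The integrin gene ITGA3 was at 465, 465 and 465 against 323, 373 and 419 CPM, higher by less than 2-fold (0.32 ± 0.09, adjusted P = 0.043), which held only on leaving out pGFP replicate 3 and was 0.11 to 0.13 without any other of the 6 libraries. ADGRG1, an adhesion receptor, did not pass, at 1.57, 1.24 and 0.846 against 0.835, 0.681 and 0.843 CPM (0.62 ± 0.33, adjusted P = 0.35), and CAV1 at 235, 235 and 242 against 160.5, 232 and 242 CPM (adjusted P = 0.67). VDR, the vitamin D receptor, was at 39.1, 30.1 and 28.8 against 27.7, 23.9 and 25.9 CPM (adjusted P = 0.3; 0.0091 with the block).

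The copy used here of the study's list of high-confidence p53 targets at 24 h holds 190 genes. The study lists them as those that wild type p53 raised at least 2-fold in these same samples, so that their direction is not independent evidence. High-confidence targets that were not raised are absent, so the counts are not a rate over all such targets. All 190 were tested here. In p53 TM 117 rose at least 2-fold, 156 without the fold limit, and none fell, beside rises of 2.49% and 5.65% of all genes tested. Their median log2 fold change was 1.29. The 2-fold count was 100 to 130 when 1 of the 6 libraries was left out.

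The fit with the replicate block gave 87 falls of at least 2-fold. Without the fold limit it gave 1993 lower genes (9.9%) beside 2631 higher ones (13.1%). In the unpaired fit few genes were lowered. Of the 14 genes that fell at least 2-fold, 8 are protein-coding, 4 long non-coding RNAs and 2 of other kinds, and 3 had a mean of at least 1 CPM. GPER1, a membrane estrogen receptor, was at 3.81, 5.65 and 5.05 CPM in p53 TM and 10.4, 10.7 and 8.48 CPM in pGFP (log2 fold change -1.03 ± 0.20, adjusted P = 0.006). GPRIN3, which regulates neurite outgrowth, was at 1.55, 1.27 and 0.961 against 3.05, 2.82 and 1.88 CPM (-1.04 ± 0.28, adjusted P = 0.039). CYP1A1, a cytochrome P450 gene induced through the aryl hydrocarbon receptor, was at 0.63, 0.852 and 0.634 against 1.5, 1.58 and 1.31 CPM (-1.05 ± 0.27, adjusted P = 0.03). The groups did not overlap in any of the 3, which was a condition for naming them and so adds no evidence. Over all 20124 genes tested all p53 TM libraries lay below all pGFP libraries in 2122. The folds of the 3 genes lay at the 2-fold limit. GPER1 dropped below it without p53 TM replicate 1 (-0.88) and without pGFP replicate 1 (-0.96) or replicate 2 (-0.96), with adjusted P still at or under 0.037. GPRIN3 lost its call without any 1 of the libraries but pGFP replicate 3 (adjusted P = 0.055 to 0.15), and CYP1A1 without any but p53 TM replicate 2 (0.063 to 0.13). The other 11 falls were below 1 CPM, and of these the largest were those of ZFPM1-AS1 (-2.24 ± 0.50), RALGPS2-AS1 (-2.14 ± 0.47) and HAS2 (-1.82 ± 0.51), named here after their values were seen. RALGPS2-AS1 kept its call without any 1 library (adjusted P at most 0.042), while ZFPM1-AS1 lost it without p53 TM replicate 1 or 3 or pGFP replicate 1 (0.062 to 0.072) and HAS2 without any 1 of the 6 (0.094 to 0.18).

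All 24 cell division genes tested were on the lower side in p53 TM, with a median log2 fold change of -0.41, and 3 of them passed without the fold limit: FBXO5, PLK1 and TOP2A. Over all 20124 genes tested 10647 were on the lower side, the median was -0.02 and 1.05% were called lower. FBXO5, an inhibitor of the anaphase-promoting complex, was at 46, 49.2 and 49.1 CPM in p53 TM and 70.9, 74 and 66.2 CPM in pGFP (log2 fold change -0.55 ± 0.09, adjusted P = 0.0014). PLK1, a mitotic kinase, was at 75.3, 93.1 and 109 against 132, 134 and 148 CPM (-0.58 ± 0.16, adjusted P = 0.038). TOP2A, the topoisomerase that separates chromosomes, was at 291, 346 and 308 against 409, 444 and 404 CPM (-0.41 ± 0.12, adjusted P = 0.048). No library of either group overlapped in these 3 genes. They were picked by a test on these same libraries, so this adds no separate evidence. Only FBXO5 kept its call whichever library was left out. PLK1 kept it only without p53 TM replicate 3 (0.095 to 0.19 otherwise) and TOP2A only without p53 TM replicate 2 (0.11 to 0.2 otherwise). In bulk samples fewer cells of a kind, such as dividing ones, and less RNA per cell cannot be told apart.

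With the replicate block 22 of the 24 cell division genes were lower, beside 9.9% of all genes tested. CDK1, the kinase that drives mitosis, was at 103, 110.4 and 89 CPM in p53 TM and 149.6, 147 and 123 CPM in pGFP (-0.47 ± 0.15, adjusted P = 0.076; 2.1e-04 with the block). The proliferation marker MKI67 was at 304, 285 and 308 against 450.4, 387 and 397 CPM (adjusted P = 0.083; 0.002 with the block), and cyclin B1, CCNB1, at 252, 315 and 347 against 362, 400.5 and 423 CPM (adjusted P = 0.23; 3.1e-04 with the block). In each pair of libraries of 1 number the p53 TM value was the lower one for these 3 genes. CCSAP, a centriole protein, was at 25.1, 27.6 and 27.9 against 32.9, 35 and 30.6 CPM (adjusted P = 0.2; 0.034 with the block).

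Of 24 genes of the G1/S transition and replication, 21 were on the lower side and 6 passed without the fold limit, or 20 with the block, with a median of -0.30. Leaving out a library gave 2 to 7 in the unpaired fit. Of all genes tested 1.05% were called lower, or 9.9% with the block. CCNE2, cyclin E2, was at 60.5, 59.7 and 54.4 CPM in p53 TM and 84.8, 84.6 and 73.7 CPM in pGFP (log2 fold change -0.48 ± 0.09, adjusted P = 0.0033). E2F1, a transcription factor of S phase entry, was at 52.3, 59 and 60.5 against 80.8, 83 and 78.9 CPM (-0.50 ± 0.10, adjusted P = 0.0047). Both were below pGFP in all 3 libraries, though picked by a test on these same libraries. Both kept their call without any 1 of the 6 (adjusted P at most 0.029 and 0.033). E2F2, CDC6, CDC25A and CDT1 were the other 4, and each lost its call in 5 or 6 of the 6 fits that left out a library (adjusted P = 0.051 to 0.2). E2F8 was at 11, 14 and 15.1 against 20.8, 21.2 and 18.8 CPM (-0.60 ± 0.17, adjusted P over the limit and rounding to 0.05; 0.0018 with the block). The helicase subunit MCM7, the most abundant member, was at 543, 672 and 710.4 against 747, 824 and 831 CPM (adjusted P = 0.15; 7.1e-05 with the block).

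A further 13 genes that the study describes as repressed, chosen on these samples and so not independent evidence, had a median of -0.45; 4 passed without the fold limit, 10 with the block, and 1 to 4 when a library was left out. GFI1, a transcriptional repressor, was at 3.96, 5.48 and 4.13 CPM against 8.09, 7.61 and 7.09 CPM (log2 fold change -0.75 ± 0.16, adjusted P = 0.011, 0.068 without p53 TM replicate 1 and 0.056 without pGFP replicate 1). NKX6-1, a homeobox gene, was at 2.44, 2.8 and 2.5 against 3.77, 4.35 and 4.63 CPM (-0.72 ± 0.15, adjusted P = 0.0069, 0.058 without pGFP replicate 3). The groups did not overlap in either gene, but both were picked by a test on these same libraries. STOX1, a winged helix protein, was at 4.88, 4.97 and 5.29 against 7.08, 6.03 and 5.18 CPM (adjusted P = 0.38), where the ranges met.

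p53 TM was then set against wild type p53 in the same fit, to see where it stood between no p53 and normal p53. Of all genes tested, 1893 (9.41%) were lower and 1269 (6.31%) higher than with wild type p53 at an adjusted P under 0.05. The lower ones numbered 1016 without p53 TM replicate 2, 1014 without p53 TM replicate 3, 1144 without wild type replicate 1 and 1217 without wild type replicate 2. The higher ones numbered 521, 622, 667 and 790 in the same order. The block gave 4455 lower and 3334 higher. Of the 501 genes that p53 TM raised over pGFP, 274 were lower than with wild type p53, 227 were not called and none was called higher. With the block, 413 of them were lower and 2 higher, MIR34AHG among the latter (0.29 ± 0.32, adjusted P = 0.61; 0.012 with the block). These 2 comparisons share the p53 TM libraries.

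For a set of well-known targets no difference from wild type p53 was called. The study places FAS, SESN1 and XPC among genes reduced only at 6 h, from these same samples, so their place here is not independent evidence. MDM2 was at 1972, 1826 and 1290 CPM with wild type p53, and p53 TM differed by -0.17 ± 0.18 (95% interval -0.51 to 0.18, adjusted P = 0.6). FAS was at 75.7, 61.7 and 48.3 CPM with wild type p53 (-0.20 ± 0.18, interval -0.56 to 0.15), and SESN1 at 202, 186 and 145 CPM (-0.14 ± 0.15, interval -0.43 to 0.14). In DNA repair DDB2 was at 102, 97.7 and 74.4 CPM (0.07 ± 0.12, interval -0.16 to 0.30) and XPC at 95.3, 85.7 and 73.7 CPM (0.13 ± 0.11, interval -0.08 to 0.34). The ranges of p53 TM and wild type p53 overlapped in all 5 genes, and the intervals, which are somewhat narrow, leave room for modest differences. Within each replicate number MDM2, FAS and SESN1 were lower and XPC was higher in p53 TM than with wild type p53, but none of the 5 passed with the block either (adjusted P = 0.16 for MDM2, 0.18 for FAS, 0.074 for SESN1, 0.47 for DDB2 and 0.064 for XPC). None of 12 DNA repair genes was called against wild type p53, and with the block PCNA was lower and 1 other gene higher. Of the death receptors 2 of 10 were lower, 5 with the block, and of metabolism and redox genes 2 of 16, 6 with the block. Leaving out 1 library gave 1 to 4 and 2 to 3, with 1 death receptor lower without p53 TM replicate 2 or 3 or wild type replicate 1 or 2, and 4 without p53 TM replicate 1. In metabolism and redox 1 gene was higher than with wild type p53, or 2 with the block.

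A second set rose over pGFP and was lower than with wild type p53. The study names CDKN1A, PLK2, BTG2 and BBC3 as reduced by p53 TM in these samples, so their place here is not independent evidence. CDKN1A was at 586, 848 and 534 CPM with wild type p53, above every p53 TM library, and the log2 difference of p53 TM was -0.79 ± 0.18 (adjusted P = 0.0095). PLK2 was at 484, 352 and 323 CPM with wild type p53 (-1.38 ± 0.15, adjusted P = 1.5e-04). BTG2 was also lower (-0.53 ± 0.14, adjusted P = 0.021), as was BBC3 (-0.78 ± 0.19, adjusted P = 0.013). Among the largest rises SULF2 was at 12.4, 10.7 and 6.59 CPM with wild type p53 (-1.88 ± 0.31, adjusted P = 0.0014), KLHL30 at 19.1, 27.8 and 12.7 CPM (-1.81 ± 0.33, adjusted P = 0.0028) and DRAXIN at 102, 96.3 and 57.9 CPM (-1.43 ± 0.30, adjusted P = 0.0058). In these 3 genes no p53 TM library reached the lowest wild type library. Over all tested members, whether or not they rose over pGFP, 8 of 14 genes of cell cycle arrest were lower than with wild type p53, 8 of 16 of intrinsic apoptosis, 6 of 10 secreted factors and 9 of 13 of adhesion, cytoskeleton and receptors. Without p53 TM replicate 3 these counts were 5, 2, 3 and 7, without p53 TM replicate 2 they were 6, 4, 4 and 7, without wild type replicate 1 they were 6, 3, 4 and 7 and without wild type replicate 2 they were 6, 5, 4 and 8. With only the 2 groups compared in the fit, intrinsic apoptosis had 2. In that list 1 gene was higher than with wild type p53 in the fit of all groups, with or without the block.

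Another set did not pass over pGFP in p53 TM in the unpaired fit and was higher with wild type p53. The study gives ADGRG1, PRDM1, BMP7, CAV1 and VDR as examples of activation reduced by p53 TM in these samples. Their difference from wild type p53 is thus not independent evidence, and the same holds for ATF3 below. With the block RPRM, BMP7, PRDM1 and VDR did pass over pGFP (adjusted P = 0.0033, 0.0024, 0.036 and 0.0091), while ADGRG1 (0.12) and CAV1 (0.26) did not. ADGRG1 was at 7.16, 7.99 and 3.63 CPM with wild type p53 (-2.37 ± 0.30, adjusted P = 3.3e-04). RPRM was at 18.7, 15.4 and 13.3 CPM with wild type p53 (-1.96 ± 0.19, adjusted P = 8.2e-05), and BMP7 at 3.01, 3.08 and 1.63 CPM (-1.89 ± 0.31, adjusted P = 0.0013). PRDM1, a transcriptional repressor of B cell differentiation, was at 6.38, 2.77 and 3.04 CPM in p53 TM, 3.71, 2.29 and 2.73 CPM in pGFP and 18.6, 9.31 and 8.42 CPM with wild type p53. It was lower than with wild type p53 (log2 difference -1.58 ± 0.35, adjusted P = 0.008). CAV1 (-0.94 ± 0.16, adjusted P = 0.0015) and VDR (-0.72 ± 0.16, adjusted P = 0.0091) were lower than with wild type p53 too. ATF3, a stress transcription factor, was in between, at 11.2, 10.7 and 14.2 CPM in p53 TM, 8.72, 8.76 and 7.83 CPM in pGFP and 19.2, 14.6 and 17.2 CPM with wild type p53, and its call over pGFP (adjusted P = 0.038) held only without p53 TM replicate 2 among the fits that left out a library (0.064 to 0.18 otherwise).

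**Figure D2:**
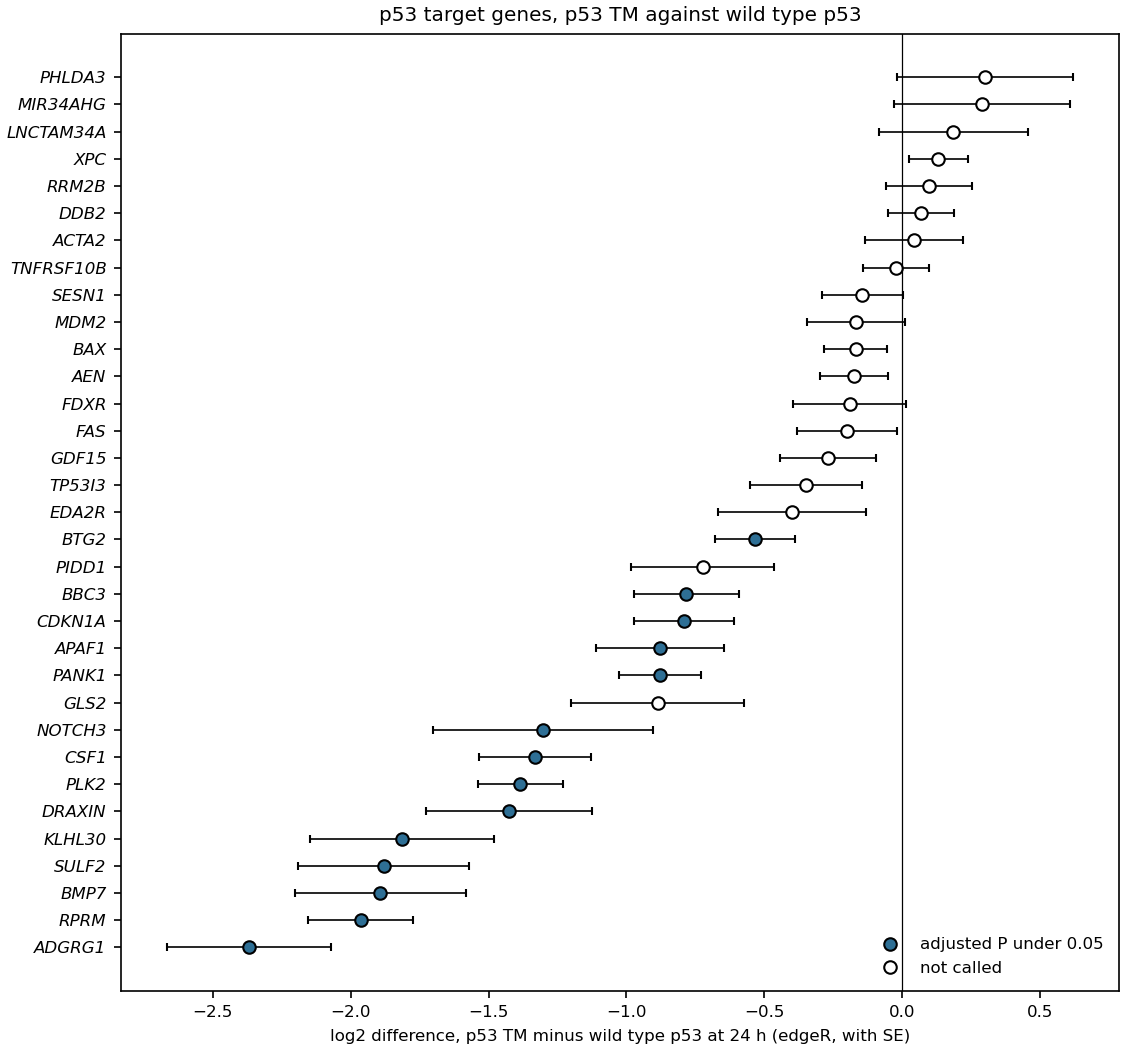
Log2 differences, p53 TM minus wild type p53 at 24 h, with their SE, for 33 target genes in order of the difference; filled points have an adjusted P under 0.05. The values run from 0.30 for PHLDA3 to -2.37 for ADGRG1, and the genes near 0, such as DDB2 and ACTA2, are not called.

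Some genes with lower levels in p53 TM than in pGFP were lower still with wild type p53. CCNE2 was at 28, 26.3 and 27.6 CPM with wild type p53, and p53 TM was higher by 1.09 ± 0.09 (adjusted P = 3.6e-05). CDK1 was at 46.5, 66.3 and 52.8 CPM with wild type p53 (0.87 ± 0.15, adjusted P = 0.0019) and GFI1 at 1.88, 2.41 and 2.2 CPM (1.06 ± 0.17, adjusted P = 0.0013). Each p53 TM library of these 3 genes lay between the pGFP and the wild type libraries. The study names all 3 as genes whose repression was weakened by p53 TM in these samples, so this is not independent evidence. PLK1, in contrast, was at 91.8, 98.3 and 127 CPM with wild type p53, where no difference from p53 TM was detected (-0.19 ± 0.16, adjusted P = 0.46; 0.043 with the block). Of the cell division genes 6 of 24 were higher than with wild type p53, and with the block 11 were higher and 3 lower (CDC20, KIF20A and PLK1). Of the G1/S genes 6 of 24 were higher, and with the block 11 were higher and 2 lower (MCM4 and MCM5). Without p53 TM replicate 2 or replicate 3 the higher cell division genes numbered 4 and 3, without wild type replicate 1 they numbered 3, and the higher G1/S genes numbered 2 in each of these fits, without wild type replicate 2 and with only the 2 groups compared. Of the study's other repressed genes 11 of 13 were higher, beside 6.31% of all genes tested. They were chosen on these same samples, so this is not independent evidence. Of the 14 genes that fell at least 2-fold, 1 was also lower than with wild type p53: SNORA26, a small nucleolar RNA, at 0.263, 0.243 and 0.307 CPM in p53 TM, 0.576, 0.535 and 0.644 CPM in pGFP and 0.484, 0.486 and 0.592 CPM with wild type p53 (-0.93 ± 0.28 against wild type p53, adjusted P = 0.035). All its values were under 1 CPM, and its fall against pGFP (-1.09 ± 0.28, adjusted P = 0.026) held only without p53 TM replicate 3 among the 6 fits that left out a library (0.06 to 0.11 otherwise).

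Set against RW mutant p53, which makes p53 RNA from the same kind of vector, p53 TM raised 508 genes (2.52%) and lowered 12 (0.0596%) at least 2-fold. Without p53 TM replicate 1 the rises numbered 321, and the block gave 716 rises and 51 falls. Of the 501 rises over pGFP, 448 were also called here, in comparisons that share the p53 TM libraries. MDM2 was at 193, 190.0 and 177 CPM with RW mutant p53 (log2 fold change of p53 TM 3.02 ± 0.19, adjusted P = 2.7e-07) and CDKN1A at 49.5, 53.4 and 48.6 CPM (2.91 ± 0.20, adjusted P = 4.0e-07), both with ranges that overlapped those of pGFP. GPER1 (-1.11 ± 0.20, adjusted P = 0.0036) and CYP1A1 (-1.11 ± 0.27, adjusted P = 0.022) were lower than with RW mutant p53 too.

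Other stress pathways were examined as lists. Of 10 genes of ATF4 and unfolded protein stress, all were on the higher side, beside 9477 of all 20124 genes tested, and the median was 0.27. Without the fold limit 3 were called higher, CHAC1 (0.62 ± 0.12), DDIT3 (0.47 ± 0.10) and ATF3, or 6 with the block, beside 5.65% and 13.1% of all genes tested. This count was 1 without p53 TM replicate 3, 3 without p53 TM replicate 1 and 2 without any other of the 6 libraries, and DDIT3 lost its call without p53 TM replicate 2 (0.058) or replicate 3 (0.057). In the same list HSPA5, the chaperone of the endoplasmic reticulum, was at 561, 580.0 and 660.2 against 443, 674 and 562 CPM (adjusted P = 0.86). With the block 13.1% of all genes tested were higher and 9.9% lower, and the block counts of the next lists stand beside these shares. Among 13 interferon and nucleic acid response genes tested none passed, 2 with the block, and the median was -0.01. ISG15, an interferon-induced modifier, was at 169, 166 and 213 CPM against 144, 124 and 172 CPM (adjusted P = 0.11; 0.009 with the block). Of 7 heat shock genes none passed, 3 with the block, and HSP90AA1 was at 4886, 5540 and 5128 against 4562, 5955 and 5205 CPM (adjusted P = 0.97). Of 8 NRF2 targets only HMOX1, heme oxygenase, was higher (0.73 ± 0.13, adjusted P = 0.0023), or 3 of the 8 with the block, and the abundant TXNRD1 did not pass (0.18 ± 0.25, adjusted P = 0.8; 0.0072 with the block). None of 9 transcripts of the mitochondrial genome was called in either fit, with a median of -0.11.

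Of 6 targets of the aryl hydrocarbon receptor tested, CYP1A1 fell at least 2-fold, and CYP1B1 (-0.57 ± 0.13, adjusted P = 0.014) and TIPARP (-0.33 ± 0.08, adjusted P = 0.023) were lower by less. CYP1B1 was at 12, 12.4 and 12 CPM in p53 TM, 15.3, 20.6 and 18.2 CPM in pGFP and 19.4, 22.5 and 23.1 CPM with wild type p53, so p53 TM stood below both (against wild type p53 -0.84 ± 0.13, adjusted P = 0.001). Of these 3 groups only p53 TM had O6-bzG, and it also differed from the others in its vector. O6-bzG and vector cannot be told apart among these 3 groups. The series also holds the same vector without O6-bzG at 24 h, which was not compared here, and the cause was not tested. CYP1B1 lost its call against pGFP without p53 TM replicate 1 (0.061) or pGFP replicate 2 (0.089) or replicate 3 (0.075), and TIPARP lost it without any library but p53 TM replicate 3 (0.08 to 0.16). NQO1, which is shared with NRF2, was at 167, 242 and 231 against 161, 196 and 187 CPM (adjusted P = 0.49; 0.0065 with the block).

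The size of the response is described here by replicate number, with no test. Over the 501 rises, which were chosen with these libraries, the median log2 difference between p53 TM and the pGFP library of the same number was 1.60 in number 1, 1.11 in number 2 and 0.89 in number 3, with 0.5 CPM added. Number 1 gave the largest difference in 438 genes and number 3 the smallest in 398. Of the fixed lists, death receptors had medians of 1.88, 1.51 and 1.36 and cell cycle arrest genes 1.05, 0.83 and 0.65. Cell division genes had -0.56, -0.41 and -0.29, again furthest from 0 in number 1. Wild type p53 against the same pGFP libraries gave 2.01, 1.85 and 1.37 for cell cycle arrest and -0.83, -0.67 and -0.36 for cell division. In DNA repair (0.37, 0.48 and 0.16) and long non-coding RNAs (0.92, 0.95 and 0.86) the wild type median was highest in number 2, where p53 TM had 0.32, 0.27 and 0.22 and 0.70, 0.47 and 0.24. Both sets of differences share the pGFP libraries.

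**Figure D3:**
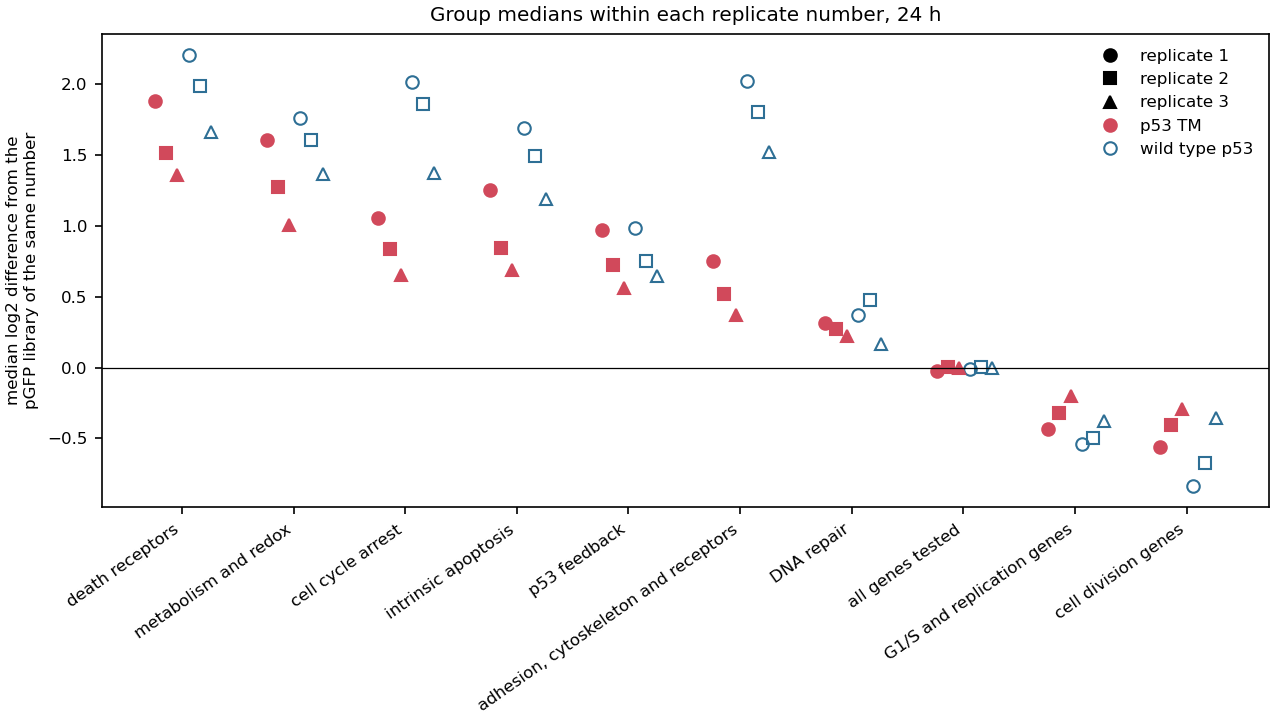
Median log2 difference from the pGFP library of the same replicate number, in 9 gene lists and over all genes tested, for p53 TM (filled) and wild type p53 (open), with the replicate number as the marker. Circles, replicate 1, are furthest from 0 in most lists, while the medians over all genes tested lie within 0.03 of 0.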

How the data were processed

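H1299 libraries of total RNA depleted of ribosomal RNA were sequenced, and the authors aligned the reads with STAR 2.5.3a to hg38 and counted them per gene with featureCounts of Subread 1.5.2. The deposited counts were whole numbers that had not been normalized, for 39359 genes, with totals of 32302699 to 51604990 at 24 h. The depth limits precision most for genes with few reads, and whether counting used the strand is not given in the sources used here. Of the gene IDs, 38904 matched GENCODE v44, which gave biotypes and overlaps, and 455 did not.

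The 15 libraries at 24 h, 5 groups of 3, were fitted together with edgeR 4.0.16 in R 4.3.3, after filterByExpr and TMM normalization, by the quasi-likelihood test. A gene was called at a Benjamini-Hochberg adjusted P under 0.05 and at least 2-fold, with no fold limit against wild type p53. The SE is the absolute log2 fold change divided by the square root of the F statistic. The 95% intervals took 1.96 SE on either side, a normal quantile, and are somewhat narrow for groups of 3. The study describes the 3 libraries of a group as biological triplicates without naming separate cultures, and P-values measure the spread between these libraries. Lists are described by counts and medians. Tables were handled with Python 3.11.15 and pandas 2.3.3. On simulated counts for p53 TM against pGFP, with 200 of 19874 genes changed, edgeR recovered 165 with 3 false calls, and 162 with 4 false calls with the block. How reliable the unpaired and paired fits are on the real libraries, which deviated together by replicate number, was not tested.

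Same-number libraries of different groups at 24 h deviated together from their group means: the correlation was above 0.1 in all 30 pairs (0.20 to 0.66), and was 0.21, 0.35 and 0.50 for p53 TM with pGFP. Of 60 pairs with different numbers 11 were also above 0.1 (-0.53 to 0.26, median -0.30). Replicate 2 of p53 TM with replicate 3 of pGFP had 0.207, so numbers 2 and 3 were less clearly apart from each other than from number 1. The pairing rests on these values and on the numbers in the labels, which do not say what the numbers stand for.

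Alternatives were DESeq2 1.42.0 (Wald test, or its size factors), other filters, other sets of libraries, the replicate block and leaving out each library. Named by rule were genes the study names, the 12 largest rises and 10 largest falls with a mean of at least 1 CPM and no overlap, from each list the 3 called members with the largest change and the most abundant one not called, and genes beyond wild type p53. Further list members named were chosen after their values were seen. The members and lists were chosen with earlier results of these data known. Some items withheld for evaluation are not reported here.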

Additional observations from a re-analysis of the deposited data

How the results depend on the processing

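The large rises changed least and the counts of falls most. The genes lowered at least 2-fold by p53 TM against pGFP numbered 9 with the DESeq2 Wald test, 7 with no filter on low counts, 7 with only the 2 groups compared, 23 with all 30 libraries of both times, 25 with 28 of them (without 2 libraries at 6 h whose titles name 2 groups) and 87 with the replicate block. Without the fold limit 1138 genes were higher and 211 lower. Those 211 became 373 with the Wald test, 70 with no filter, 359 with 28 libraries and 1993 with the block, and the 1138 became 1921 with 28 libraries and 2631 with the block. Against wild type p53 the higher genes numbered 629 with only the groups compared, 1981 with 28 libraries and 3334 with the block, and the lower ones 1139 with only the groups compared and 4455 with the block. Against RW mutant p53 the 12 falls became 6 with the Wald test, 3 with only the groups compared, 26 with 30 libraries, 32 with 28 and 51 with the block. The cause of these shifts was not tested.

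Leaving out 1 library gave 317 to 587 rises and 3 to 13 falls against pGFP, or 646 to 1111 and 29 to 148 without the fold limit. The same gave 521 to 1210 higher and 1014 to 2146 lower genes against wild type p53, and 321 to 605 rises and 2 to 9 falls against RW mutant p53. Against pGFP the fewest rises came without p53 TM replicate 1 and the fewest falls without pGFP replicate 1.

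Of 73 genes named by rule 40 were called, 35 of them under every alternative run, up to 14 a gene. The calls of CYP1A1, GPER1, GPRIN3, NOTCH3 and SNORA26 were lost under some. A change of sign was seen only in genes that were not called.

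HSP90AA1 had log2 fold changes of 0.0265 with no filter, 0.0159 with 30 libraries and 0.0191 with 28. Leaving out 1 library gave log2 fold changes of -0.0791 to 0.0915 for HSP90AA1, -0.0113 to 0.2627 for HSPA5, -0.016 to 0.0675 for LPIN1, -0.0291 to 0.1738 for MALAT1, -0.3793 to 0.1657 for MT-CO1, -0.1269 to 0.2221 for TNFRSF1A and -0.1671 to 0.0081 for XRCC5.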
